A study of Mus musculus with 4 samples.

Results

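The cells described here are the Olfm4-high crypt cells of the mouse small intestine that carried few transcripts of the proliferation genes Mki67 and Top2a. They number 493 of the 25788 barcodes that passed the quality limits, out of 44277 barcodes in the matrix. They are called the stem gate below. Members were chosen by their own counts of unique molecular identifiers (UMIs, each a captured transcript). A member had at least 500 UMIs and 250 detected genes, with at most 25% of UMIs from mitochondrial genes. Olfm4 made up at least 0.05% of its UMIs and at least 5 UMIs. Lgr5, Ascl2 and Smoc2 together gave at least 1 UMI, and Mki67 and Top2a together gave fewer than 5. Muc2 was under 0.2% of UMIs, alpha-defensin genes were under 5%, Chga and Chgb together were under 5 UMIs, and Ptprc was at 0. Levels of these genes in the gate are therefore a description of the choice and not a finding.

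The study fed male C57BL/6J mice a high-fat diet and l-NAME, which blocks the nitric oxide synthases, for 7 weeks from an age of 8 weeks. The diet carried 562.5 mg per kg of 3-indolepropionic acid (IPA), which gut bacteria make from tryptophan, in 2 samples, and the control formulation in 2 samples. All 4 samples share the high-fat diet and l-NAME, and each is a pool of 2 mice, so single mice cannot be told apart. The epithelial layer of jejunum and ileum was sorted for live, DAPI-negative cells and profiled by droplet single-cell RNA sequencing. The deposited matrix separates 4 libraries by a number in the barcode, and no label or header used here ties those numbers to the 2 diets. Libraries are therefore named 1 to 4 by barcode number, no diet comparison was made, and no value below has a replicate check. Intervals are exact 95% intervals and cover counting error only.

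Lgr5 marks the crypt base columnar cells, the stem cells that sit between Paneth cells at the crypt bottom and renew the intestinal epithelium. They are maintained by Wnt signals, which switch on genes such as Lgr5, Ascl2 and Axin2, and by Notch signals from their neighbours, which keep Olfm4 on and the secretory regulator Atoh1 off. Their daughters divide as transit-amplifying cells, and become absorptive enterocytes or secretory cells as they leave the crypt. In the mouse these stem cells divide often, so a low level of mitotic transcripts in a single cell need not mean rest.

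The stem gate held 96, 168, 149 and 80 cells in libraries 1 to 4. That was 1.56% (interval 1.26 to 1.90), 2.36% (2.02 to 2.74), 2.36% (2.0 to 2.77) and 1.29% (1.03 to 1.61) of the passing barcodes of each library. The shares of libraries 2 and 3 lay above those of libraries 1 and 4 with no overlap of the intervals. Passing barcodes had median depths of 27622, 27135, 22601 and 26017 UMIs, and 214 barcode sequences occurred in more than 1 library, 1 of them a member. The shares depend on which other cells each library holds: barcodes with Ptprc and Cd3e UMIs, the gate used here for T cells, numbered 298, 2, 1206 and 4. Among barcodes that met only the quality and lineage limits, the shares were 1.80%, 2.57%, 3.65% and 1.36%. Cells that met the same rule but had 5 or more Mki67 and Top2a UMIs, called the cycling crypt gate, numbered 120, 169, 193 and 78. The stem gate was thus 44.4%, 49.9%, 43.6% and 50.6% of all Olfm4 crypt cells in the 4 libraries, with overlapping intervals.

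Members had a median of 23703 UMIs and 4678 genes, with 7.96% mitochondrial UMIs. The 2 crypt gates differed in depth in every library. Median UMIs were 26977.5, 20585, 26692 and 20490.5 in the stem gate, against 42964.5, 32712, 40441 and 35443.5 in the cycling crypt gate. A limit of 5 UMIs is easier to pass in a shallow cell, and the part of depth in the split was not tested. Inside the gate, the lowest Olfm4 share was 0.0501% and the median 0.437%, with 45 members under 0.1%. Just outside, the highest share among 78 barcodes with 5 or more Olfm4 UMIs was 0.0496%. There were 34 members with a single Lgr5, Ascl2 or Smoc2 UMI, and 34 barcodes stayed outside because they had 0. Members with 0, 1, 2, 3 and 4 Mki67 and Top2a UMIs numbered 192, 116, 91, 61 and 33, and 33 cells of the cycling crypt gate had exactly 5.

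**Figure D1:**
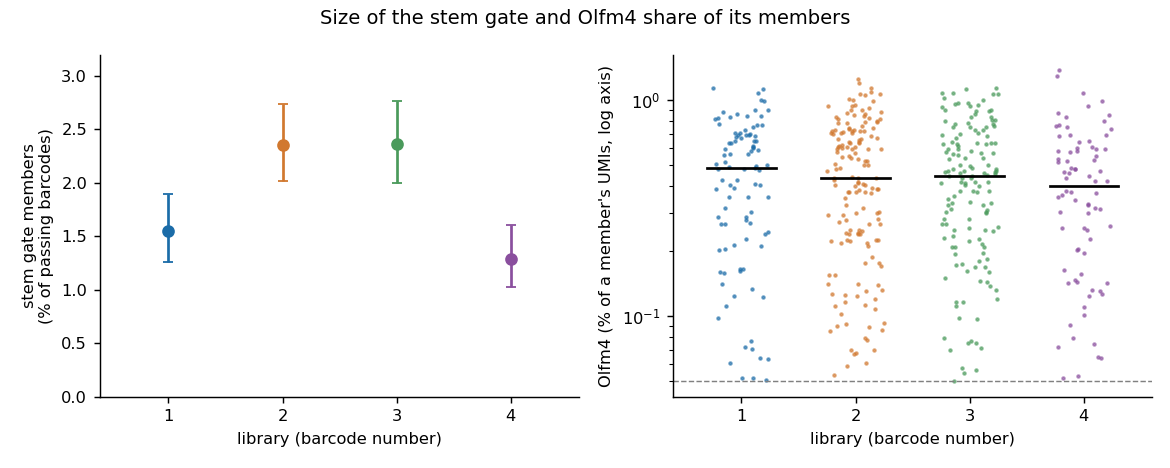
Left: stem gate members as a percentage of passing barcodes in each library, with exact 95% binomial intervals that cover counting error only. Right: Olfm4 as a percentage of UMIs in each member with at least 5000 UMIs, on a log axis, with the library median as a bar and the 0.05% limit of the gate dashed. The 4 libraries cover a similar range of Olfm4, with the median member of all libraries at 0.437%.

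Among the genes of the rule, Smoc2 was detected in 471 of the 493 members, Ascl2 in 305 and Lgr5 in 255 (51.7%), and 182 members had all 3. The rule gives every member a UMI of at least 1 of them, so these counts describe the choice of cells. Slc12a2, the Na-K-Cl cotransporter of crypt cells, was not part of the rule and was detected in 100%, 99.4%, 98.7% and 97.5% of members of libraries 1 to 4. Its level in CPM (the UMIs of a gene scaled to all UMIs, both summed over the cells of a gate in a library) was 641, 527, 633 and 505 in the stem gate. It was 7.37, 5.61, 10.9 and 6.89 in the low-Apoa4 absorptive gate. That gate holds the least mature absorptive cells defined here: Fabp1 at 0.5% or more, Apoa4 under 0.2%, and Olfm4 and proliferation UMIs under the same limits. Cdca7, a Myc target of crypt cells, showed the same order, with 203, 173, 216 and 182 CPM in the stem gate, against 9.35, 8.31, 12 and 13.3 in the low-Apoa4 absorptive gate.

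Lgr5 and Olfm4 are genes of the rule, so their levels here describe the choice of cells and support no identity. After each cell was thinned to 5000 UMIs, 33.3%, 21.0%, 31.3% and 22.5% of members had an Lgr5 UMI. None of 311, 400, 397 and 400 thinned cells of the low-Apoa4 absorptive gate did, which allows up to 0.965%, 0.75%, 0.756% and 0.75%. Of the 1206 T cell barcodes of library 3, only 341 had at least 5000 UMIs and could be thinned. An Lgr5 UMI was found in 1.17% of these 341, while the median depth of all 1206 was 4010 UMIs. Unthinned, Lgr5 was detected in 58.3%, 47.6%, 57.0% and 42.5% of members, against 0.316%, 0.199%, 0.248% and 0.190% of the low-Apoa4 absorptive gate. Olfm4, a far more abundant transcript, gave a UMI in 12.9% of thinned T cell barcodes of library 3, against all members of the stem gate. Markers of cells outside the epithelium were at or near 0 in the stem gate, apart from the 4 B and plasma cell markers, which summed to 68.9, 4.27, 30.8 and 2.25 CPM in libraries 1 to 4. The 4 stroma markers were at 0 in all 4 libraries, and the 5 T cell markers summed to 0.714, 0, 4.20 and 0 CPM. The 6 enterocyte markers summed to 9915, 7400, 10590 and 10300 CPM, of which 15.7%, 12.6%, 17.0% and 33.2% came from a single cell. In the high-Apoa4 absorptive gate the same markers summed to 108800, 106900, 112000 and 117200 CPM. The 6 Paneth markers summed to 437, 1401, 1001 and 1142 CPM in the stem gate, against 172, 346, 385 and 157 CPM in the high-Apoa4 absorptive gate. The 6 goblet markers summed to 1325, 1082, 949 and 198 CPM in the stem gate, against 262, 282, 392 and 239 CPM in the high-Apoa4 absorptive gate, and a single cell gave 39.4%, 26.1%, 16.1% and 8.81% of the stem gate UMIs. There were 26 members with Apoa4 at 0.5% of UMIs or more, and 42 members were among the barcodes with the highest doublet scores.

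Members were low in mitosis transcripts but carried those of DNA replication. A gene counted as measured when its level averaged at least 10 CPM over the gates compared, and ratios were taken on CPM + 1. Of 21 mitosis genes, 20 were at least 2-fold lower in the stem gate than in the cycling crypt gate in each of the 4 libraries. Over all genes measured, 1.76% were that far lower (139 of 7880), and Mki67 and Top2a, which set the contrast, belong to the same programme. Cdk1, the kinase that drives mitotic entry, had 21.8, 28.0, 19.8 and 34.9 CPM in the stem gate, against 190, 192, 183 and 179 CPM in the cycling crypt gate. Nusap1, a spindle protein, had 2.14, 2.13, 0.700 and 2.25 CPM against 127, 103, 122 and 96.3 CPM. In both genes every library of the stem gate lay below every library of the cycling crypt gate. The exception among the 21 was Ccnb2, a mitotic cyclin, with 62.9, 50.2, 69.5 and 64.2 CPM in the stem gate against 143, 117, 136 and 129 CPM.

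Replication genes behaved otherwise. Of 24 measured, 2 were at least 2-fold lower in the stem gate in each library, Rrm2 and Cdc45, and the list medians of the log2 ratio to the cycling crypt gate were -0.22, -0.28, -0.48 and -0.22. The median over all genes lay between -0.07 and -0.05. Mcm6, a subunit of the replicative helicase, had 124, 123, 117 and 143 CPM in the stem gate, against 99.3, 104, 118 and 106 CPM in the cycling crypt gate and 6.92, 6.95, 10.2 and 10.1 CPM in the low-Apoa4 absorptive gate. Pcna, the sliding clamp of the replication fork, had 157, 161, 144 and 160 CPM in the stem gate, against 177, 199, 206 and 190 CPM in the cycling crypt gate and 59.4, 49.3, 67.5 and 56.8 CPM in the low-Apoa4 absorptive gate. Cdt1, which licenses replication origins, was higher in the stem gate than in the cycling crypt gate in all 4 libraries, with 61.4, 53.6, 51.8 and 68.1 CPM against 42.7, 42.2, 48.7 and 39.6 CPM. Rrm2, a subunit of ribonucleotide reductase, and the replication-dependent histones sided with the mitosis genes. Rrm2 had 11.8, 9.87, 9.10 and 26.5 CPM in the stem gate against 53.1, 64.6, 63.4 and 70.4 CPM, and the linker histone gene Hist1h1b had 9.29, 6.14, 7.46 and 14.6 CPM against 200, 168, 186 and 188 CPM.

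The replication transcripts were spread over the members and not confined to a few. At 5000 UMIs per cell, the median member had 6, 6, 6 and 6.5 UMIs of the list in libraries 1 to 4, against 8, 10, 9 and 9.5 in the cycling crypt gate and 1 in each library of the low-Apoa4 absorptive gate. Members with none were 3.13%, 3.09%, 0.680% and 0% of the stem gate (0 of 80 in library 4, which allows up to 3.75%). They were 44.4%, 42.8%, 42.1% and 45% of the low-Apoa4 absorptive gate. Even the 192 members with 0 Mki67 and Top2a UMIs carried the list, at 1137, 1170, 1112 and 1283 CPM summed, against 1661, 1625, 1467 and 1941 CPM in members with 1 to 4 such UMIs. Mitosis genes in the same cells summed to 776, 707, 520 and 863 CPM, against 1488, 1367, 1490 and 1826 CPM in members with 1 to 4. In the low-Apoa4 absorptive gate mitosis genes summed to 704, 760, 668 and 1034 CPM and replication genes to 180, 175, 221 and 219 CPM. By summed mitosis genes the members without Mki67 and Top2a UMIs were thus near the absorptive gate, and by summed replication genes above it in every library. Gene by gene the mitosis list read otherwise. Over the whole stem gate, 9 of 10 measured mitosis genes were higher than in the low-Apoa4 absorptive gate in all 4 libraries, and 1 was lower. The list medians of that log2 ratio were 1.59, 1.40, 1.51 and 1.11, so the sums do not stand for the list.

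**Figure D2:**
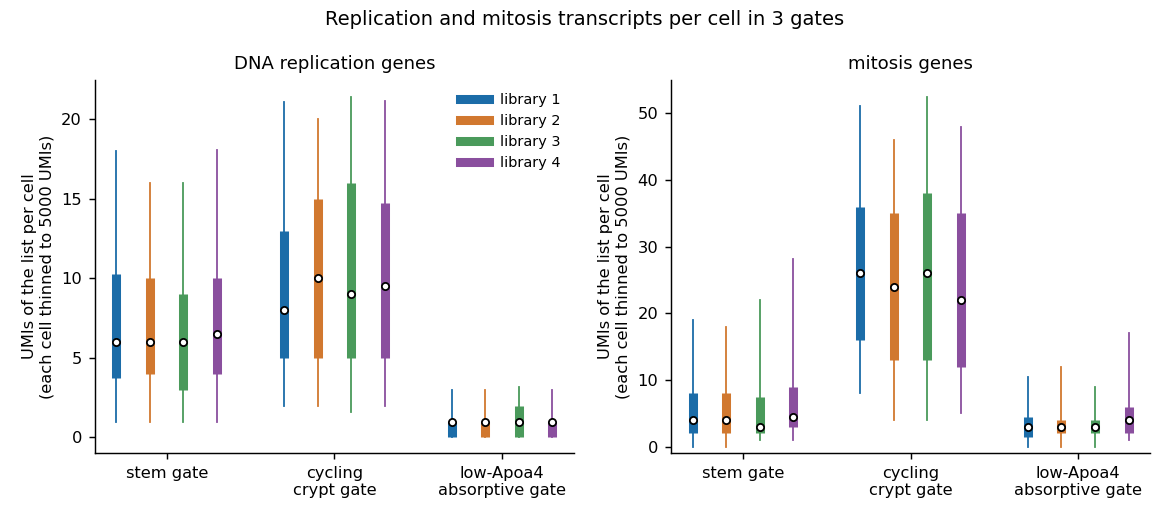
UMIs of the DNA replication list (left) and the mitosis list (right) per cell, after each cell was thinned to 5000 UMIs, in the stem gate, the cycling crypt gate and the low-Apoa4 absorptive gate. Circles are medians, thick bars the quartiles and thin lines the 5th to 95th percentiles of the cells of each library; median replication UMIs are 6 to 6.5 in the stem gate, 8 to 10 in the cycling crypt gate and 1 in the absorptive gate.

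Of 11 measured cell cycle inhibitors and D cyclins, 4 were at least 2-fold higher in the stem gate than in the low-Apoa4 absorptive gate in each library and 2 were lower. Over all 7477 genes measured, 10.8% were that far higher and 7.38% that far lower. The D cyclin Ccnd2 had 361, 416, 400 and 492 CPM in the stem gate, against 411, 391, 415 and 522 CPM in the cycling crypt gate and 130, 147, 117 and 168 CPM in the low-Apoa4 absorptive gate. Its partner kinase Cdk4 had 275, 292, 290 and 299 CPM, against 302, 312, 316 and 302 CPM in the cycling crypt gate and 61.2, 61.4, 66.8 and 74.5 CPM in the low-Apoa4 absorptive gate. The inhibitor Cdkn1a, which arrests cells, had 40.4, 35.2, 42.9 and 40.5 CPM in the stem gate, against 27.3, 32.7, 34.4 and 49.5 CPM in the cycling crypt gate and 153, 188, 144 and 224 CPM in the low-Apoa4 absorptive gate. Cdkn2b, an inhibitor of Cdk4 and Cdk6, had 7.14, 12.8, 10.7 and 6.76 CPM, against 4.02, 9.37, 7.42 and 4.92 CPM in the cycling crypt gate and 162, 199, 167 and 206 CPM in the low-Apoa4 absorptive gate. Ccnd2 and Cdk4 were thus higher in the stem gate than in the absorptive cells and both inhibitors were lower, and in these 4 genes the stem gate was nearer to the cycling crypt gate.

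Few genes were higher in the stem gate than in the cycling crypt gate. Edn1, which encodes the peptide endothelin-1, was the only gene at least 2-fold higher in each library, 0.0127% of the 7880 measured. It had 61.4, 40.8, 130 and 30.4 CPM in the stem gate, against 14.2, 7.67, 32.4 and 5.57 CPM in the cycling crypt gate and 2.07, 1.05, 11 and 2.12 CPM in the low-Apoa4 absorptive gate. The smallest of its 4 ratios to the cycling crypt gate was 3.93, and in each gate library 3 was highest. Edn1 UMIs were found in 31.3%, 17.9%, 38.9% and 17.5% of members, and the highest cell gave 13.4%, 18.3%, 15.7% and 27.8% of them. Next came Pdgfa, a ligand of the mesenchymal receptor PDGFRA, with 109, 137, 126 and 115 CPM in the stem gate against 55.6, 69.3, 61.7 and 53.1 CPM. Phlda1 had 87.9, 95.5, 108 and 74.3 CPM against 49.5, 48.9, 52.2 and 31.4 CPM. Gkn3, a gastrokine gene, had 111, 79.5, 150 and 104 CPM against 65.4, 46.9, 97.6 and 72.1 CPM. Spry1, an inhibitor of receptor tyrosine kinase signalling, had 25.4, 29.1, 33.6 and 27.6 CPM against 17.5, 17.7, 19.6 and 11.1 CPM. Ces2c, Rhoc and Btnl1 were higher by at least 1.49, 1.44 and 1.43-fold in each library, and these 3 were higher still in the absorptive gate.

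The Wnt-driven list differed little between the 2 crypt gates. None of its 36 measured genes, which include the rule genes Olfm4, Lgr5, Ascl2 and Smoc2, was 2-fold apart in each library. Of the 32 others, 17 were higher in the stem gate in all 4 libraries and 2 were lower in all 4, beside 13.5% higher and 29.3% lower among all 7880 genes. Axin2, a feedback inhibitor of the Wnt pathway, had 109, 103, 99.1 and 93.5 CPM in the stem gate against 105, 102, 105 and 90.8 CPM in the cycling crypt gate. Sox9, a crypt transcription factor, had 161, 156, 137 and 133 CPM against 98.4, 106, 110 and 89.1 CPM. Myc, which drives growth, had 63.9, 70.2, 58.1 and 59.1 CPM against 42.5, 48.9, 46.0 and 35.1 CPM. The Notch gene Nrarp went the other way, with 20.7, 30.9, 27.5 and 32.1 CPM in the stem gate against 42.1, 43.4, 42.0 and 43.9 CPM. Hopx and Bmi1, often used as marks of slow-cycling reserve cells, did not set the gate apart. Hopx had 214, 189, 229 and 203 CPM against 194, 186, 206 and 178 CPM, and Bmi1 had 11.1, 12.5, 12.4 and 14.6 CPM against 10.5, 17.0, 12.6 and 10.8 CPM.

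Against the low-Apoa4 absorptive gate the stem gate differed widely, with 10.8% of 7477 measured genes at least 2-fold higher in each library (805 genes) and 7.38% lower (552 genes). This contrast is between cells with and without Olfm4, so genes of the crypt programme are close to the choice itself. The absorptive gate was in turn chosen by its Fabp1 share, so genes of the absorptive programme are close to the choice too. The genes with the widest gap to the absorptive gate were Ifitm3, Slc12a2, Igfbp4, Sox4, Rgcc, Gkn3, Tubb2b and Soat1. Ifitm3, a membrane protein that restricts virus entry, had 694, 655, 402 and 374 CPM in the stem gate against 8.72, 5.09, 4.38 and 4.23 CPM. Sox4, a transcription factor of progenitor cells, had 184, 212, 239 and 222 CPM against 2.79, 2.10, 3.69 and 3.48 CPM. Of the type I interferon list, 9 of 11 measured genes were lower in the stem gate in all 4 libraries, beside 36.9% of all 7477 genes.

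By function, 28 of 32 measured Wnt-driven genes were at least 2-fold higher in the stem gate than in the low-Apoa4 absorptive gate in each library, as were 19 of 24 genes of polyamine and one-carbon metabolism and 7 of 18 chromatin genes. The Wnt-driven list includes the rule genes Olfm4, Lgr5, Ascl2 and Smoc2. Of the Wnt receptors and transducers, 2 of 13 passed the same limit, beside 10.8% of all 7477 genes. Over all 13 genes, those 2 included, the list medians were 0.22, 0.17, 0.09 and 0.38 on the log2 scale. Ctnnb1, which encodes beta-catenin, had 212, 196, 236 and 203 CPM against 240, 217, 242 and 210 CPM. The 2 genes past the limit were Wls, which carries Wnt ligands to the surface, and Bcl9l, a co-activator of beta-catenin. Wls had 36.8, 34.7, 35.7 and 34.3 CPM in the stem gate against 5.39, 3.47, 4.24 and 5.05 CPM, and Bcl9l had 18.6, 17.9, 20.8 and 18.6 CPM against 6.02, 4.98, 7.79 and 6.55 CPM. Fzd7, a Wnt receptor too low to be measured by this rule, had 11.1, 9.61, 11.9 and 8.45 CPM against 2.07, 1.75, 1.67 and 2.12 CPM.

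Ion transport changed sides between the gates. Kcne3 and Kcnq1, which form a basolateral potassium channel that supports chloride secretion, were higher in the stem gate. Kcne3 had 230, 210, 214 and 272 CPM against 23.2, 25.2, 24.5 and 33.6 CPM in the low-Apoa4 absorptive gate, and Kcnq1 had 80.4, 84.9, 92.4 and 80.0 CPM against 12.9, 15.4, 13.3 and 15.4 CPM. The water channel Aqp4 had 64.3, 62.7, 75.8 and 73.2 CPM against 5.21, 3.51, 4.66 and 4.78 CPM. The apical exchangers of absorptive cells were lower. Slc9a3, the sodium-proton exchanger, had 8.93, 3.47, 7.70 and 6.19 CPM against 60.5, 43.8, 41.2 and 33.8 CPM, and Slc26a3 had 33.9, 33.4, 33.1 and 27.0 CPM against 198, 178, 204 and 176 CPM. Of 14 measured genes of this list, 7 were at least 2-fold higher in each library and 3 were lower. Over all 7477 genes measured, 10.8% were that far higher and 7.38% that far lower.

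Absorptive and metabolic lists were lower. In the stem gate 12 of 23 absorptive identity genes were at least 2-fold lower in each library than in the low-Apoa4 absorptive gate. The same held for 10 of 17 genes of the PXR and AhR list and 5 of 7 antimicrobial genes. It also held for 8 of 30 genes of fatty acid oxidation and ketone synthesis. Over all 7477 genes measured, 7.38% were that far lower. The absorptive gate was chosen by its Fabp1 share, so absorptive identity genes are close to the choice itself. The genes with the widest gap were Cdkn2b, Plb1, Apol10a, Ces1f, Car4, Arg2, St3gal4 and Gsta1. Arg2, a mitochondrial arginase, had 97.5, 117, 106 and 99.7 CPM in the stem gate against 932, 981, 958 and 998 CPM in the low-Apoa4 absorptive gate. Gsta1, a glutathione transferase, had 60.7, 58.4, 73.7 and 60.2 CPM against 712, 522, 594 and 539 CPM, and a single cell gave 73.8% of its stem gate UMIs in library 4. AhR itself, the receptor for indole ligands, was at like levels, with 12.2, 11.5, 10.0 and 12.4 CPM against 11.9, 10.4, 11.5 and 9.69 CPM. Nr1i2, which encodes PXR, had 25, 19.8, 21.0 and 16.9 CPM against 44.0, 40.2, 46.2 and 37.0 CPM.

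**Figure D3:**
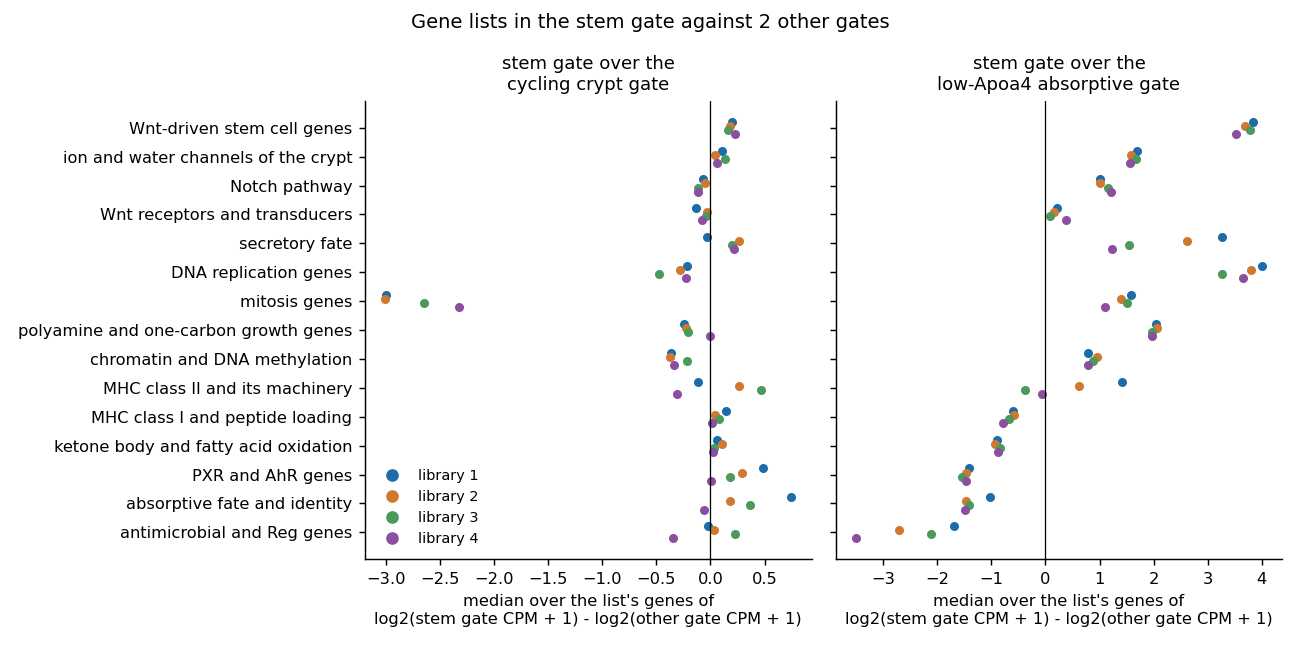
Median over the measured genes of each list of the log2 ratio of the stem gate to the cycling crypt gate (left) and to the low-Apoa4 absorptive gate (right), computed on CPM + 1 within each of the 4 libraries (coloured points). The mitosis list is the one far from 0 against the cycling crypt gate, at -3.00, -3.01, -2.65 and -2.33, while the replication and Wnt-driven lists are the highest against the absorptive gate.

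Within the gate, members were ordered by Olfm4 share and cut into tertiles of equal cell number in each library, with 26 to 54 cells each. Ordering by a gene of the rule makes this a description of how the gate is built. Among 7771 measured genes, 0.656% were at least 2-fold higher in the highest tertile than in the lowest tertile in each of the 4 libraries (51 genes), and 1.69% were lower (131 genes). Median depth was lower along the order, for example 29590, 27874.5 and 22802.5 UMIs in library 1, and its part was not tested. Thinned to 5000 UMIs, Lgr5 was found in 3.13%, 28.1% and 68.8% of cells of the lowest, middle and highest tertile of library 1. Library 2 had 3.70%, 24.1% and 35.2%, library 3 had 4.08%, 24.5% and 65.3%, and library 4 had 3.85%, 11.1% and 51.9%. Lgr5 thus came almost wholly from the upper 2 tertiles, and its share was higher in each tertile than in the one before in all 4 libraries.

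Other crypt genes followed the same order. Slc12a2 had 375, 650 and 919 CPM in the lowest, middle and highest tertile of library 1, and 331, 496 and 696 CPM in library 4. Gkn3 had 25.9, 92.6 and 189 CPM in library 2, and 30.8, 104 and 141 CPM in library 4. The Wnt-driven list, without the genes of the gate, summed to 2500, 4019 and 5050 CPM in library 1. The sums were 2293, 3537 and 4874 CPM in library 2. Library 3 had 2584, 3959 and 5735 CPM, and library 4 had 2777, 3444 and 4763 CPM. Of its 32 measured genes, 29 were higher in the highest tertile than in the lowest in all 4 libraries, and 9 were at least 2-fold higher in each. Among all 7771 genes, 15.4% were higher in the highest tertile in all 4 libraries.

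Genes with the widest gap in favour of the highest tertile, ranked after their values were seen, included Agr3, Nr2e3, Lbh, Sorbs2, Nav1, Rgmb and Phlda1. Rgmb, a BMP co-receptor, had 143, 134, 183 and 170 CPM in the highest tertile of libraries 1 to 4, against 40.4, 43.6, 48.8 and 35.3 CPM in the lowest. Nr2e3, a nuclear receptor, had 48.6, 53.7, 61.8 and 51.5 CPM against 10.6, 12.7, 12.7 and 11.3 CPM, and Phlda1 had 131, 167, 177 and 190 CPM against 47.1, 44.4, 62.7 and 18.3 CPM. In these 3 genes all libraries of the highest tertile lay above all libraries of the lowest. Ribosomal protein genes moved in the same direction by a smaller ratio: 74 of 82 were higher in the highest tertile in all 4 libraries, beside 15.4% of all genes, with list medians of 0.32, 0.33, 0.31 and 0.35 on the log2 scale. The median over all genes was between -0.09 and -0.03.

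The lowest tertile had more absorptive and mitotic transcripts in its sums than the highest tertile. Fabp1, the liver-type fatty acid binding protein, had 5544, 1769 and 850 CPM in the lowest, middle and highest tertile of library 1, and 4290, 2216 and 1094 CPM in library 3. A few cells carried these levels: unthinned, the 5 cells with the most Fabp1 held 81.6% of the UMIs of the lowest tertile in library 1 and 76.9% in library 3. The median cell had 1693, 946 and 607 CPM of Fabp1 along the tertiles of library 1 and 1982, 1568 and 802 CPM in library 3. Sis, the brush border sucrase-isomaltase, had 71.0, 39.6, 46.4 and 65.4 CPM in the highest tertile of libraries 1 to 4, against 488, 236, 387 and 326 CPM in the lowest. Rbp2, a retinol binding protein of enterocytes, had 693, 322, 432 and 900 CPM against 4624, 1994, 3181 and 4682 CPM. These gaps lay in few cells too, since the 5 highest cells held 75.2% to 89.0% of the Sis UMIs and 78.5% to 93.6% of the Rbp2 UMIs of the lowest tertile. The median cell had 336, 329, 357 and 446 CPM of Rbp2 in the highest tertile, against 404, 370, 387 and 470 CPM in the lowest. The sums were not graded in every library. Unthinned, the lowest, middle and highest tertile of library 2 had 4660, 4998 and 596 CPM of Fabp1. The same tertiles had 236, 244 and 39.6 CPM of Sis and 1994, 2306 and 322 CPM of Rbp2. The mitosis list summed to 1600, 1019 and 1131 CPM along the tertiles of library 1. Library 2 had 1930, 1067 and 604 CPM, library 3 had 1722, 1041 and 735 CPM, and library 4 had 2108, 1881 and 859 CPM. Replication genes summed to 1838, 1275 and 1362 CPM, 1581, 1474 and 1359 CPM, 1437, 1543 and 922 CPM, and 1762, 2007 and 1207 CPM in the same order. They were lowest in the highest tertile in libraries 2 to 4, and there too the sums lay above the 175 to 221 CPM of the low-Apoa4 absorptive gate.

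**Figure D4:**
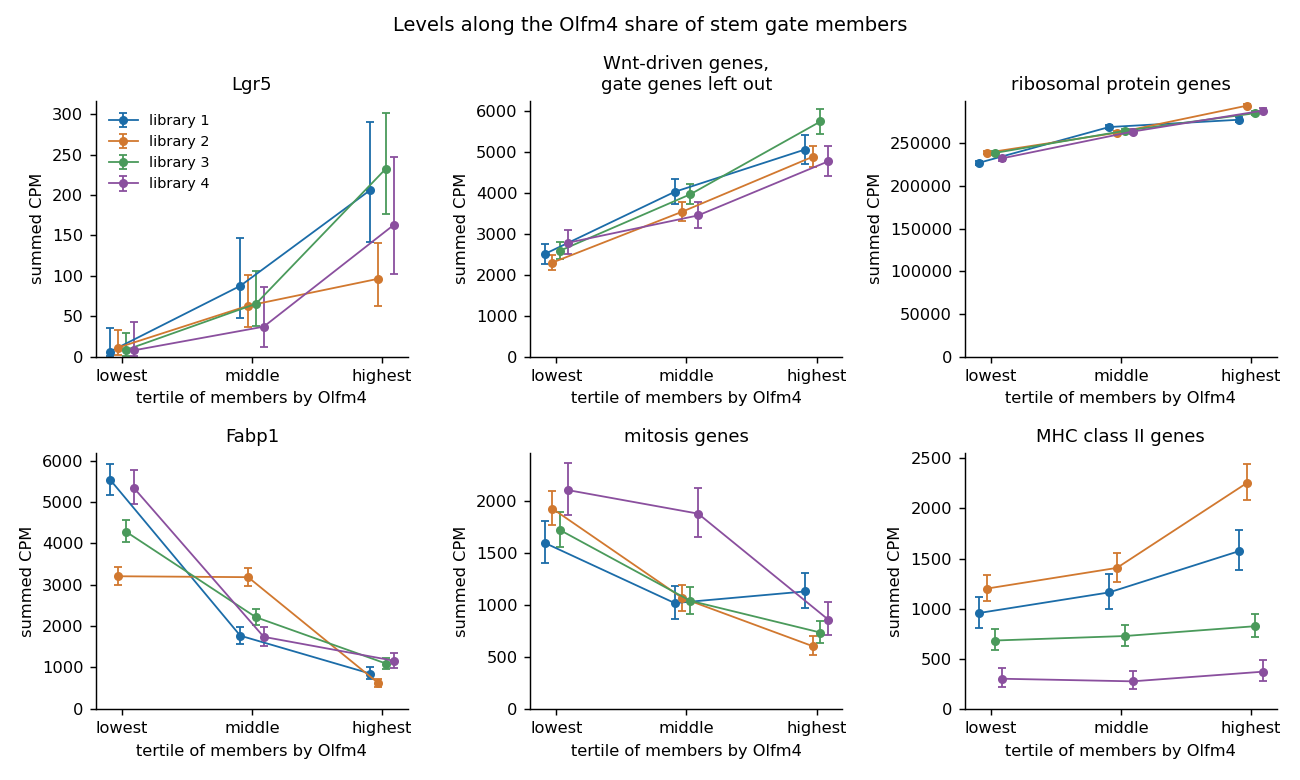
Summed CPM of 3 gene lists, the MHC class II list and the genes Lgr5 and Fabp1 in the lowest, middle and highest tertile of stem gate members by Olfm4 share, after thinning to 5000 UMIs; lines are libraries and bars are exact 95% Poisson intervals for counting error. Lgr5, the Wnt-driven list and ribosomal protein genes are higher toward high Olfm4. Fabp1 and the mitosis list are lower in the highest tertile than in the lowest.

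Transcripts of secretory commitment were sparse. Atoh1, the switch to the secretory lineage, was detected in 32 of the 493 members, and 18 of those also had a UMI of Dll1, the Notch ligand that committed cells display. By library, Atoh1 was found in 6, 13, 10 and 3 members and Dll1 in 26, 37, 36 and 19. Dll1 was not particular to these cells: it was detected in 27.1%, 22.0%, 24.2% and 23.8% of members, against 23%, 18.8%, 21.3% and 13.9% of the low-Apoa4 absorptive gate and 35.2%, 35.0%, 35.8% and 36.0% of the high-Apoa4 absorptive gate. At 5000 UMIs per cell, Atoh1 was detected in 4.17%, 3.09%, 1.36% and 1.25% of members of libraries 1 to 4, and in no cell of the highest Olfm4 tertile in any library. T cell barcodes, which should lack it, had 1.30% in library 1 and 1.76% in library 3, so the share of library 3 was not above theirs. Libraries 2 and 4 held only 2 and 4 T cell barcodes, too few for this comparison. Unthinned, the highest cell of library 3 held 45.5% of its 22 Atoh1 UMIs, and the part of background was not tested. In library 1 the interval of the stem gate (1.15 to 10.3) overlapped that of the T cell gate (0.0329 to 7.02). Neurog3, which commits cells to the enteroendocrine fate, was detected in 0, 1, 5 and 0 members, with 118 UMIs in the 5 members of library 3, of which the highest cell held 35.6%. The 0 counts in libraries 1 and 4 allow a detected Neurog3 UMI in up to 3.13% and 3.75% of cells, which sets no limit on cells that express it. The gate excludes cells with much Muc2, Chga or Chgb, so these members are the ones such limits left in.

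Between libraries most genes of the gate differed little. Of 7757 genes measured, 0.297%, 0.245%, 0.206% and 0.0516% were at least 2-fold above the median of the other 3 libraries in libraries 1 to 4. The shares 2-fold below were 0.168%, 0.425%, 0.116% and 0.657%. Libraries 2 and 4 had more genes low than high, 33 against 19 in library 2 and 51 against 4 in library 4. The low genes of library 4 included 6 of the 9 measured genes of the MHC class II list. The Wnt-driven list, without the genes of the gate, summed to 3861, 3499, 3938 and 3504 CPM. None of its 32 measured genes was 2-fold above the others in any library, and 1 was 2-fold below, in library 2.

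MHC class II molecules present peptides to CD4 T cells, and Lgr5 stem cells are among the epithelial cells known to make them. The genes that code for the chains, their chaperone Cd74 and the peptide loaders H2-DMa and H2-DMb1 are switched on together by Ciita. Their promoters share a short module next to the start that ends in a Y box, which is a CCAAT letter run read on the opposite strand as ATTGG. The 150 bases before the start of 3 genes that moved together are shown because the module can be read in them (mouse RefSeq promoters, build GRCm38.p6, read 5′ to 3′ along the gene, with ATTGG and CCAAT in capitals). They lie at chr17:34287824-34287973 on the minus strand, chr17:34305717-34305866 on the plus strand and chr17:34153041-34153190 on the plus strand.
H2-Aa: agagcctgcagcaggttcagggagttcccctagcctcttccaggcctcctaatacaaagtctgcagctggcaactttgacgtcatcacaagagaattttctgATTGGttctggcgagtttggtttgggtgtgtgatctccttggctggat
H2-Eb1: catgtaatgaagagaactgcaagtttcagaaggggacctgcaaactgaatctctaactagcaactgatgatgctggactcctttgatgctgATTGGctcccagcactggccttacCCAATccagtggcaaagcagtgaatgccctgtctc
H2-DMb1: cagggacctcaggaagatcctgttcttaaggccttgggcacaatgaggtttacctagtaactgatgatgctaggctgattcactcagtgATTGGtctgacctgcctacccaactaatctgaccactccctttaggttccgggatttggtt
ATTGG began 48, 59 and 61 bases before the start in H2-Aa, H2-Eb1 and H2-DMb1. H2-Eb1 and H2-DMb1 also share the 13 letters aactgatgatgct, which began 89 and 92 bases before the start. Of the 15 genes of the list, 11 had a promoter in the table, and 7 of those held ATTGG within 100 bases of the start. Among all 32851 promoters of the table, 10.4% did so, and 33.8% held CCAAT or ATTGG anywhere in the 250 bases before the start. In H2-DMa the nearest ATTGG began 198 bases before it. A letter match is a description and not a binding site.

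The class II genes of the stem gate were highest in library 2 and far lowest in library 4. H2-Aa, a class II alpha chain, had 72.5, 109, 41.5 and 0.563 CPM in libraries 1 to 4, the last from 1 UMI in 80 cells. H2-Ab1, its beta chain, had 122, 181, 66.2 and 5.63 CPM, and H2-Eb1 had 102, 143, 57.9 and 8.45 CPM. Cd74 had 448, 734, 322 and 41.7 CPM, H2-DMa 31.4, 43.0, 20.1 and 4.50 CPM, and H2-DMb1 17.9, 26.1, 11 and 1.13 CPM. All 6 genes kept the order of libraries 2, 1, 3 and 4. Ciita, the master regulator, kept it too, at 10.0, 11.2, 4.43 and 0.563 CPM, below the level at which ratios were taken.

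The rest of the list did not follow. Ifi30, a lysosomal thiol reductase, had 220, 219, 209 and 207 CPM, Ctss, the protease that trims the chaperone, had 38.2, 43.5, 28.2 and 31.5 CPM, and Rfxap, a subunit of the factor that recruits Ciita, had 31.8, 32.8, 34.1 and 33.2 CPM. The list median of the log2 ratio to the other libraries was 0.62, 1.18, -0.62 and -3.15, with 6 of 9 genes at least 2-fold higher in library 2 and 6 of 9 at least 2-fold lower in library 4. The medians of libraries 1 and 3 depend on library 4 and library 2 being in the comparison. Without them they were -0.02 and 0.07.

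The libraries differed in how many members carried the transcripts as well as how much. At 5000 UMIs per cell, a Cd74 UMI was found in 36.5%, 55.6%, 32.7% and 13.8% of members of libraries 1 to 4. The low-Apoa4 absorptive gate had 9.97%, 27.3%, 18.1% and 3.00%, so in each library the share was higher in the stem gate. T cell barcodes, which should lack class II, had a Cd74 UMI in 13.0% and 18.2% of thinned cells in libraries 1 and 3. Those were the 77 of 298 and 341 of 1206 barcodes with at least 5000 UMIs, the deeper part of that gate. Median depths of all its barcodes were 3791 and 4010 UMIs. For Cd74 the stem gate lay above the T cell share in both libraries, and the low-Apoa4 absorptive gate did not. H2-Aa was found in 21.9%, 27.2%, 10.2% and 0% of members, where 0 of 80 allows up to 3.75%. In the low-Apoa4 absorptive gate it was found in 4.18%, 14%, 12.85% and 1%, so the stem gate was higher in libraries 1 and 2 only. The whole list showed the same split. It summed to 1105, 1555, 806 and 344 CPM in the stem gate, against 639, 1113, 991 and 437 CPM in the low-Apoa4 absorptive gate. The T cell barcodes had 3.90% and 6.74% in libraries 1 and 3, and in library 3 the intervals of the stem gate (5.83 to 16.3) and the T cell gate (4.32 to 9.95) overlapped. The order of libraries was not the same in the absorptive cells: H2-Aa had 29.1, 89.0, 91.2 and 1.36 CPM there, with library 3 level with library 2. In the cycling crypt gate it had 87.2, 105, 27.1 and 4.92 CPM, the order of the stem gate. Along the Olfm4 tertiles the list summed to 956, 1162 and 1575 CPM in library 1 and to 1200, 1407 and 2256 CPM in library 2, higher with each tertile, while library 3 had 682, 727 and 824 CPM and library 4 had 300, 274 and 370 CPM with overlapping intervals.

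**Figure D5:**
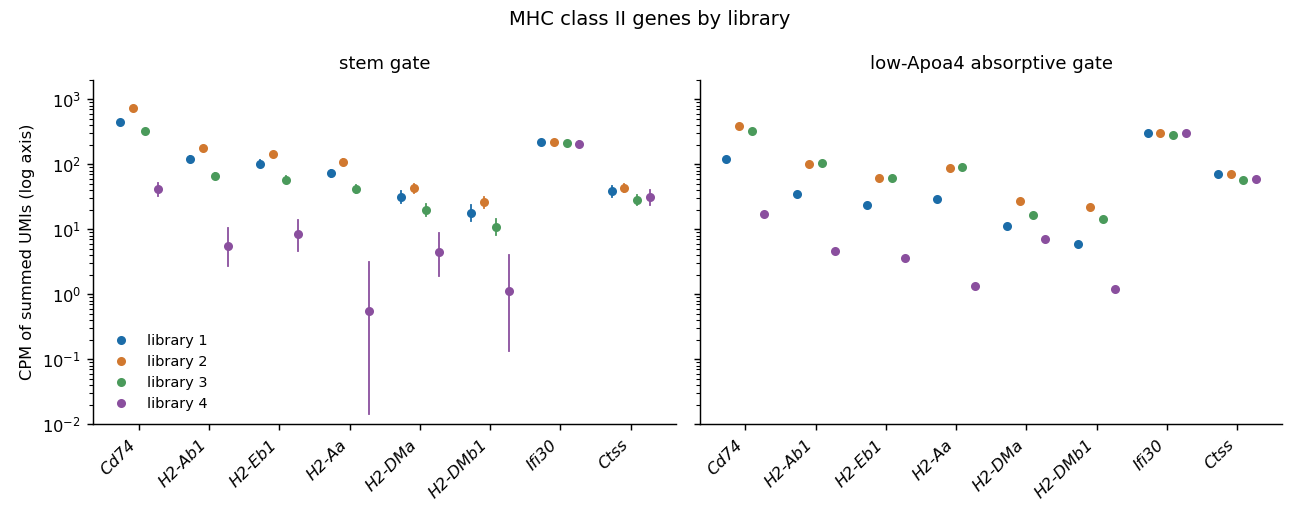
CPM of 8 genes of the MHC class II list in the stem gate (left) and the low-Apoa4 absorptive gate (right) by library, on a log axis; bars on the left are exact 95% Poisson intervals for counting error, and most are smaller than the points. In the stem gate the first 6 genes are ordered library 2, 1, 3, 4, with H2-Aa at 0.563 CPM in library 4, while Ifi30 and Ctss are at like levels in all libraries.

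Class I presentation and interferon genes differed less. The immunoproteasome genes Psmb8 and Psmb9, both inducible by interferon-gamma, had 114, 121, 55.0 and 54.0 CPM and 81.1, 99.0, 44.8 and 43.4 CPM, with libraries 1 and 2 above libraries 3 and 4. Type I interferon genes were at their highest in library 1, with a list median of 0.53. All 9 measured genes were above the median of the other libraries there, beside 51.1% of all 7757 genes. This was not particular to the stem gate. The list summed to 1066, 786.5, 645 and 584 CPM in the cycling crypt gate. It summed to 1187, 829, 850 and 896 CPM in the low-Apoa4 absorptive gate and to 4274, 1623, 1953 and 1721 CPM in the high-Apoa4 absorptive gate. Most genes of that list were too low to be measured in the stem gate. Isg15, an interferon-induced ubiquitin-like protein, had 20.7, 2.94, 3.73 and 0.563 CPM, and Ifit1 had 13.2, 0.267, 1.63 and 0 CPM. Library 1 was also highest in Ifitm3, which had 694 CPM there, but library 2 was close at 655 CPM.

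The antimicrobial lectins Reg3b and Reg3g were, beside H2-Aa and H2-Ab1, the genes furthest below the others in library 4. Reg3b had 2637, 2438, 319 and 110 CPM, and in library 3 a single cell gave 74.2% of those UMIs. Without the highest cell of each library it had 2211, 2207, 83.2 and 84.7 CPM, so libraries 3 and 4 were then level. It was detected in 94.8%, 100%, 59.1% and 47.5% of members, and in 59.4%, 87.7%, 13.6% and 20.0% after thinning to 5000 UMIs per cell, where library 3 had the lowest share. Thinned T cell barcodes, which should lack it and here had at least 5000 UMIs, had 76.6% in library 1 and 27.3% in library 3. Both lay above the stem gate shares of those libraries, so detection alone does not separate expression in members from background. Reg3g had 1048, 935, 176 and 64.2 CPM, with 63.1% of the library 3 UMIs in 1 cell, and 982, 874, 65.5 and 54.6 CPM without the highest cell of each library. In the low-Apoa4 absorptive gate Reg3b had 8072, 16940, 1519 and 2672 CPM. The part of free Reg3b RNA from those cells in the stem gate was not tested. Immunoglobulin transcripts set libraries 1 and 3 apart. Igkc had 87.2, 7.47, 48.3 and 3.38 CPM in the stem gate, against 99.0, 3.75, 56.9 and 5.24 CPM in the cycling crypt gate and 85.1, 5.54, 49.6 and 4.85 CPM in the low-Apoa4 absorptive gate. Within libraries 1 and 3 the levels were close across these 3 gates of epithelial cells. Igkc UMIs were found in 90.6%, 14.9%, 77.2% and 7.50% of stem gate members. B and plasma cell barcodes were not counted here, and the part of free RNA in the Igkc levels was not tested.

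Single cells stood behind several other library differences. Fabp6, the ileal bile acid binding protein, had 22.1, 21.1, 440 and 16.9 CPM, and 96.0% of the library 3 UMIs lay in 1 cell. Ada had 118, 13.1, 135 and 131 CPM, with 57.0% and 72.5% of the UMIs of libraries 1 and 4 in 1 cell each, and Clca4a and Pmp22 were built alike. Mmp7, a Paneth cell protease, had 29.6, 36.6, 8.16 and 6.76 CPM, with 91.6% of the library 1 UMIs in 1 cell. Agr2, a secretory cell disulfide isomerase, had 418, 423, 157 and 36.0 CPM, with 41.1% and 41.4% of the UMIs of libraries 1 and 2 in 1 cell each. Its order of libraries did not rest on those cells. Without the highest cell of each library Agr2 had 250, 251, 109 and 30.2 CPM. The goblet markers were lowest in library 4 too. The Paneth genes Lyz1 and Itln1 were lowest in library 1, where Lyz1 had 66.1 CPM against 301, 144 and 164 CPM in libraries 2 to 4 and Itln1 had 25.7 CPM against 105, 61.6 and 82.2 CPM. The genes AY761184 and Car4 were lowest there too, at 23.9 and 10.7 CPM.

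Smaller shifts ran through whole lists. In library 3, 27 of 29 measured genes of fatty acid oxidation and ketone synthesis were above the median of the other libraries, beside 53.5% of all 7757 genes, with a list median of 0.26 and 1 gene past 2-fold. The genes with the widest gaps included Pdk4, Cd36, Angptl4 and Acot1, known targets of the lipid sensors of the PPAR family. Acot1, an acyl-CoA thioesterase, had 156, 110, 272 and 166 CPM in the stem gate of libraries 1 to 4, and Pdk4, which shifts cells from glucose to fat, had 20.0, 10.9, 32.4 and 10.7 CPM. Library 3 was highest in both genes in the cycling crypt gate and the low-Apoa4 absorptive gate too, with Pdk4 at 13.3, 7.84, 34.0 and 11.1 CPM in the cycling crypt gate and at 33.8, 28.7, 57.15 and 25.2 CPM in the low-Apoa4 absorptive gate. In library 4, all 13 measured mitosis genes and 21 of 23 replication genes were above the median of the others, beside 50.5% of all genes, with list medians of 0.54 and 0.32. The mitosis list was highest in library 4 in the low-Apoa4 absorptive gate too, at 704, 760, 668 and 1034 CPM summed in libraries 1 to 4. In the cycling crypt gate it was lowest there, at 5322, 4947, 4944 and 4808 CPM. Median depth was 20490.5 UMIs in the stem gate of library 4 and 20585 in that of library 2, where the mitosis list median was -0.16. The part of depth was not tested.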

How the data were processed

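Single-cell transcriptomes of small intestinal epithelium were measured in 4 samples. The deposited matrix holds raw UMI counts per gene and barcode made by the authors. The submitters' processing notes list Cell Ranger 6.1.1 and the build mm10 but give neither a role. Barcode numbers separate 4 libraries that no label ties to a diet, so no diet test was run. Members and gene lists were chosen with earlier results of these data known. Counts were summed over the cells of a gate and library and divided by the summed UMIs to give CPM. Ratios used CPM + 1 among genes averaging at least 10 CPM, and a gene was counted apart at 2-fold or more. Library ratios used the median of the other 3 libraries. Named genes were the 4 highest and 4 lowest per library and the 8 per gate contrast and direction, ranked by the ratio nearest to 1 among genes averaging at least 20 CPM, plus 2 to 4 examples per list. Genes named for the Olfm4 tertiles, and some list examples, were chosen after their values were seen. Thinning drew 5000 UMIs per cell, leaving out 8 shallower members. No doublets were removed; Scrublet scores were used only in an alternative. The library ratios and the Poisson intervals were tested on simulated Poisson counts without variation between cells. The other steps were not tested on simulated data. Python 3.11.15, numpy 2.4.6, scipy 1.17.1, pandas 2.3.3 and scanpy 1.11.5 were used. The stem gate held 1776187 to 4286917 UMIs per library.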

Additional observations from a re-analysis of the deposited data

How the results depend on the processing

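Of 156 recomputed values, 104 stayed within their limits, 50 moved and 2 changed sign. No paired analysis was possible because the barcode numbers could not be tied to the labelled samples, and the edgeR and DESeq2 diet fits were not run for the same reason. With fewer than 2 Mki67 and Top2a UMIs in place of 5, the stem gate was 0.939%, 1.63%, 1.44% and 0.695% of passing barcodes in libraries 1 to 4. With a limit of 0.02% of UMIs, added after seeing the data, library 3 had 2.89%. The MHC class II list median, with each other library left out of the comparison in turn, ran from -0.0191 to 1.3 in library 1, from 0.817 to 1.95 in library 2, from -0.873 to 0.0653 in library 3 and from -3.44 to -2.86 in library 4. It changed sign in library 1 without library 4 (-0.0191) and in library 3 without library 2 (0.0653). With a prior of 10 CPM it was 0.817 in library 2 and -1.51 in library 4, and without members at 0.5% Apoa4 or more (added after seeing the data) it was 1.32 in library 2. Counts of genes 2-fold apart followed the filter and the prior. With a mean of at least 50 CPM, the genes higher in libraries 1 to 4 numbered 6, 12, 4 and 0 and the genes lower 6, 10, 5 and 12; with no filter they numbered 228, 100, 179 and 147 higher and 130, 182, 73 and 429 lower. With a prior of 10 CPM, 8, 8 and 0 genes were higher in libraries 1, 3 and 4, and 8, 12, 5 and 20 lower in libraries 1 to 4. With the mean of per-cell CPM, 14 and 30 genes were higher in libraries 1 and 2. Without the 6% highest Scrublet scores 16 genes were lower in library 3, and without each gene's highest cell (added after seeing the data) 81 were lower in library 4. Genes higher in the stem gate than in the cycling crypt gate numbered 0 at 50 CPM, 2 with median-of-ratios scaling and 1 to 2 with a library left out; those lower numbered 34 at 50 CPM and 142 to 158 with a library left out. Against the low-Apoa4 absorptive gate 484 genes were higher with a prior of 10 CPM, 209 at 50 CPM and 1571 with no filter, and 314 were lower at 50 CPM; with a library left out 829 to 888 were higher and 577 to 602 lower. With 80 to 168 cells a library, a gene at 0 UMIs in the gate can still have a UMI in up to 3.75% of such cells, and expression below detection has no such limit.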
